A study of Mus musculus with 2 samples.

Results

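Among the cells sorted by GFP from newborn *Sox9iresGFP/+* pituitaries were *Tcf21*-positive mesenchymal cells, which made up 452 of the 13613 barcodes kept (308 of 8009 in the male library and 144 of 5604 in the female library). They were chosen by their own counts. A barcode was kept with at least 1000 genes and a mitochondrial share of at most 10%, and was a member with at least 5 unique molecular identifiers (UMIs) of *Col1a1*, *Col1a2* and *Col3a1* together, at least 2 of *Tcf21* and *Inmt*, no more of *Mfap5*, *Apod* and *Tgfbi* than of *Tcf21* and *Inmt*, and at most 1 of *Epcam*. The comparison set was the 477 barcodes (307 male, 170 female) with the same collagen sum and more *Mfap5*, *Apod* and *Tgfbi* than *Tcf21* and *Inmt*, here called fibroblast-like barcodes.

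The study sequenced GFP-positive pituitary cells at postnatal day 3, from male and from female pups, to follow postnatal stem cells. Both libraries were made from pituitaries pooled within a sex, and all animals carried 1 *Sox9* allele that also drives GFP. The label gives the cells as stem cells, so the cells described here are a minority that passed the sort. There was 1 library per sex. No test could therefore be made, and sex cannot be told apart from the animals, the sort or the preparation. All differences given are descriptions, and all intervals (exact, 95%) cover counting error only.

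Tcf21 is a basic helix-loop-helix transcription factor of mesenchyme, which binds E-box sequences with a partner and marks interstitial fibroblast precursors in kidney, lung and heart. Pituitary mesenchyme comes partly from neural crest and surrounds and enters the gland with the vessels. It lays down collagen and supplies growth factors to the epithelium. Of the other markers, Inmt is an N-methyltransferase of small amines, Olfml3 is a secreted olfactomedin-like protein of the matrix, Plac8 is a small cysteine-rich protein, and Enpep is aminopeptidase A, a membrane enzyme that cuts angiotensin II and is known from kidney and vessel-associated cells.

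*Tcf21* lies on chromosome 10 (mm10, 22817281-22820174, minus strand) and *Inmt* on chromosome 6 (55170626-55175043, minus strand), both as protein-coding genes. The stretches upstream of their starts are shown because these genes define the members. They were taken from RefSeq (GRCm38.p6), from beyond every annotated start, at chr10:22820175-22820393 and chr6:55175044-55175240, and are written 5′ to 3′ along the minus strand. Capitals mark the E-box core CANNTG, which reads the same pattern on both strands.
Tcf21: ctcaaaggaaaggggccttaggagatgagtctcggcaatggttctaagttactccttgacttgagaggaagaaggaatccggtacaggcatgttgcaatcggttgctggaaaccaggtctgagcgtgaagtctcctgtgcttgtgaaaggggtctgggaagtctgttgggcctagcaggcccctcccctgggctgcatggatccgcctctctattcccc
Inmt: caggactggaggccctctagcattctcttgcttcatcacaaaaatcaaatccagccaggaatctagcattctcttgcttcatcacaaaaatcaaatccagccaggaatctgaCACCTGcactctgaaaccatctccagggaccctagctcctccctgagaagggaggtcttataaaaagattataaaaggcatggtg
All 5 marker genes matched the RefSeq table, with 6 starts in all. The core was found upstream of 4 of the 6 starts, against 66.2% of the 32851 starts listed, each over 250 bases. None was found upstream of *Tcf21*. These letters are a description of the sequence only.

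The 5 markers, of which the rule used *Tcf21* and *Inmt*, were looked up in each member. They were named with earlier results of these data known, so their presence describes the members and does not check the label. Both genes had UMIs in 263 male and 120 female members, *Tcf21* alone in 43 and 21, and *Inmt* alone in 2 and 3, so nearly all members carried *Tcf21* itself. The members held from 2 to 64 *Tcf21* and *Inmt* UMIs in the male library (median 12) and from 2 to 29 in the female library (median 9). They also held far more collagen than the rule asked for, with medians of 51.5 and 50 UMIs of the 3 genes. Of the markers the rule did not use, *Olfml3* was found in 301 of 308 male and 141 of 144 female members, *Plac8* in 270 and 111, and *Enpep* in 223 and 97. Male fibroblast-like barcodes also carried them, *Olfml3* in 219, *Plac8* in 159 and *Enpep* in 105 of 307. All 5 markers were present in 183 male members (59.4%) and 70 female members (48.6%), and only 2 male members had none of *Olfml3*, *Plac8* and *Enpep*.

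**Figure D1:**
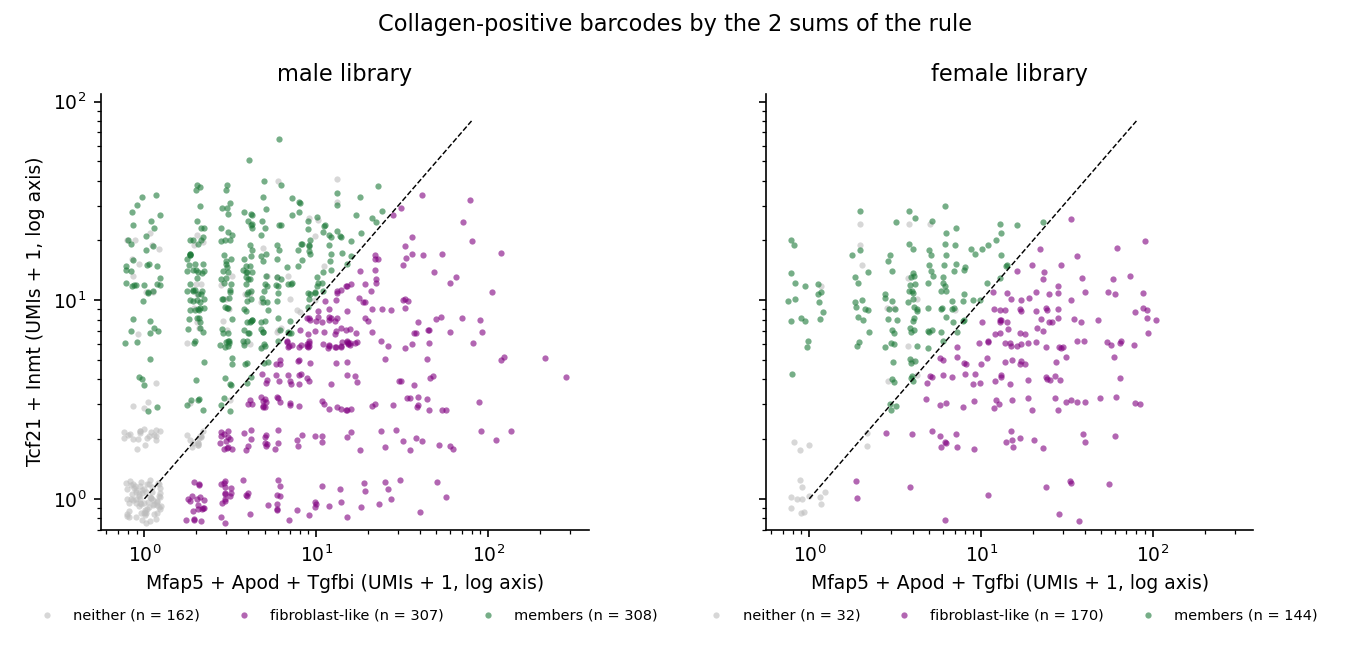
Each point is 1 barcode with at least 5 UMIs of the 3 collagen genes. The UMIs of *Tcf21* and *Inmt* together (vertical, plus 1, log axis) are plotted against those of *Mfap5*, *Apod* and *Tgfbi* together (horizontal, plus 1, log axis), with a small random shift for display. The dashed line marks equal sums. The 308 male and 144 female members lie on or above it, the fibroblast-like barcodes lie below it, and grey points are in neither set. The points form a continuous cloud across the line.

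The members at the limits of the rule were few. In the male library 10 members had exactly 2 UMIs of *Tcf21* and *Inmt*, with *Olfml3* at 326 CPM (counts per 1000000 of their summed UMIs), and the 11 barcodes just outside with 1 UMI had it at 94.8 CPM. The female numbers were 3 members at 391 CPM and 4 barcodes at 229 CPM. At the line of equal sums, 14 male and 12 female members with a tie had *Olfml3* at 558 and 512 CPM, and the 14 and 6 barcodes with 1 UMI more of the other sum had it at 423 and 244 CPM. The *Epcam* limit removed 57 male and 15 female barcodes. In these, the *Tcf21* level was 435 and 445 CPM, against 807 and 1226 CPM in the 22 and 5 members with exactly 1 *Epcam* UMI. Another 7 male barcodes had enough *Tcf21* and *Inmt* but too little collagen.

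Members were 3.85% of male barcodes kept (3.44 to 4.29) and 2.57% of female barcodes kept (2.17 to 3.02). Of the collagen-positive barcodes alone they were 39.6% (36.2 to 43.2) and 41.6% (36.4 to 47.0), so within this class the shares lay inside each other's intervals. The male library held 2513 barcodes under 1000 genes and the female library 174. The barcodes kept totalled 103324792 and 62682018 UMIs. A Scrublet doublet score marked 1 male and 1 female member, against 35 and 12 fibroblast-like barcodes. Over all barcodes kept it marked 572 of 8009 male and 256 of 5604 female barcodes, a number set by the cut on the score. The rule limits *Epcam* in members only, so the selection bears on this difference. Members had a median of 7618 UMIs in the male library and 7111 in the female, somewhat below the 8591 and 9155.5 of fibroblast-like barcodes. Among barcodes kept, 74 male and 13 female fibroblast-like barcodes carried more than 1 *Epcam* UMI, which the rule does not allow in members. Calls that changed are also given against the 233 male and 157 female fibroblast-like barcodes with at most 1 *Epcam* UMI. No barcode sequence of a member occurred in both libraries.

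Over the summed UMIs, *Tcf21* stood at 1084 CPM (1044 to 1124) in male and 958 CPM (900 to 1019) in female members, and at 243 and 283 CPM in fibroblast-like barcodes. *Inmt* stood at 541 and 496 CPM against 158 and 224 CPM. These differences were fixed by the rule. They were partial, since 192 male and 139 female fibroblast-like barcodes also had at least 2 UMIs of these genes. *Olfml3* was at 678 and 721 CPM in members and at 198 and 318 CPM in fibroblast-like barcodes. *Plac8* was at 640 and 518 CPM against 222 and 249 CPM, and 267 CPM in the female fibroblast-like barcodes with at most 1 *Epcam* UMI left it short of 2-fold there. *Enpep* was at 299 and 233 CPM against 47.7 and 79.5 CPM. The 5 genes were thus higher in members in both libraries, which the choice of members fixes for *Tcf21* and *Inmt*, and were not particular to them among collagen-positive barcodes.

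Outside the collagen-positive barcodes the markers were close to background. *Tcf21* had a UMI in 10 of 4096 male and 10 of 4029 female barcodes of a stem set (at least 3 *Sox2* and 2 *Epcam* UMIs, collagen sum under 5), which is 0.244% and 0.248%, at median depths of 12563.5 and 10157 UMIs. After every barcode was thinned to 5000 UMIs, with 29 male and 17 female shallower members left out, *Tcf21* was present in 97.8% and 96.9% of members and in 0.0763% and 0.0755% of the stem set. *Enpep* was present in 61.6% and 55.9% of thinned members, 23.9% and 26.7% of thinned fibroblast-like barcodes, and 0.153% and 0.201% of the thinned stem set. *Olfml3* was present in 92.1% and 93.7% of thinned members and in 59.5% and 70.8% of thinned fibroblast-like barcodes, and after thinning its level was no longer 2-fold higher in both libraries. The share for *Tcf21* follows from the rule, and *Olfml3* and *Enpep* are outside it.

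**Figure D2:**
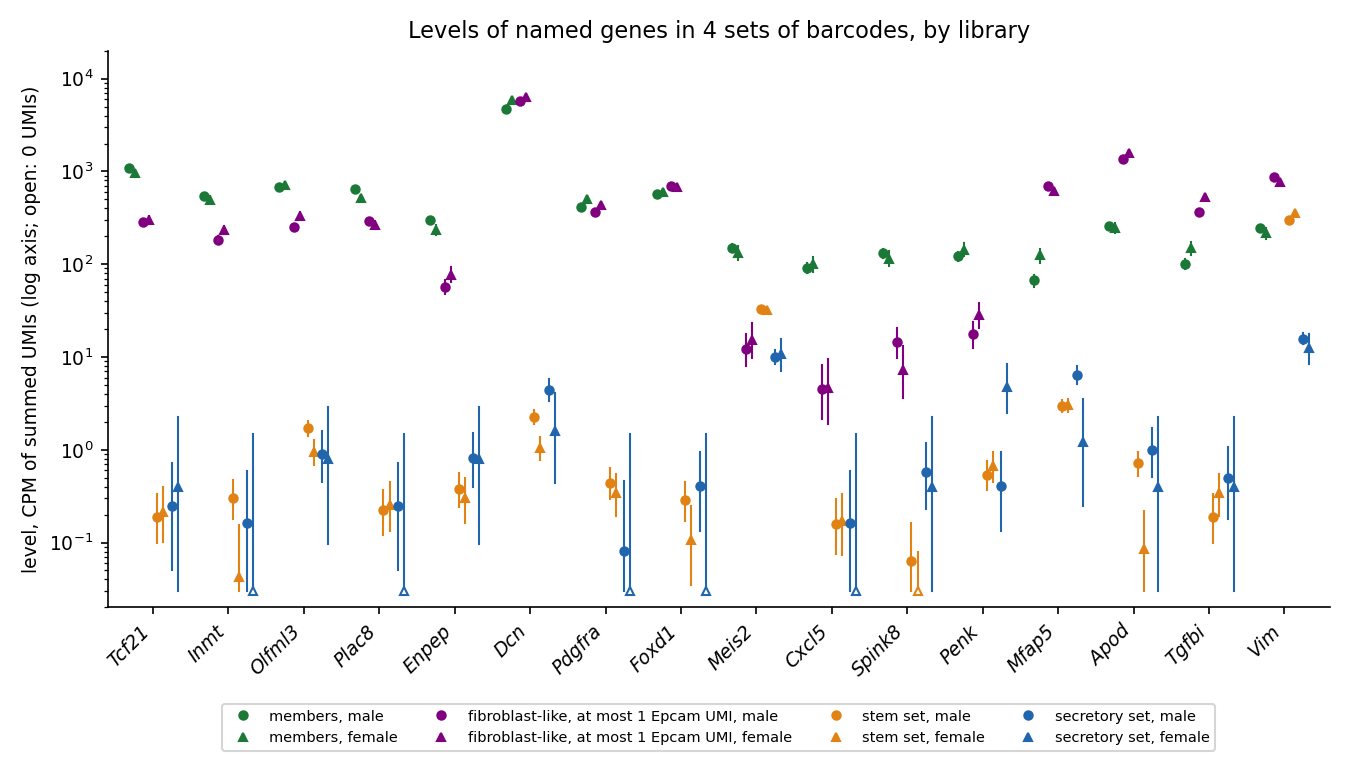
Levels of 16 named genes (CPM of summed UMIs, log axis) in members, in fibroblast-like barcodes with at most 1 *Epcam* UMI, and in a stem and a secretory set, with circles for the male and triangles for the female library. Bars are exact 95% counting intervals, drawn from 0.03 CPM upward, and open symbols are levels of 0. Members and fibroblast-like barcodes share high *Dcn*, *Pdgfra* and *Foxd1* levels. *Meis2*, *Cxcl5*, *Spink8* and *Penk* are higher in members, and *Mfap5*, *Apod*, *Tgfbi* and *Vim* are lower.

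The gene most like *Tcf21* across the collagen-positive barcodes was *Olfml3*, with a Pearson r of 0.54 over 626 male and 0.39 over 318 female thinned barcodes. Among the 10 most like *Tcf21* by the lower r were *Dcn* (0.37 and 0.34), *Ifitm1* (0.39 and 0.34) and *Enpep* (0.40 and 0.29). The opioid precursor gene *Penk* followed with 0.36 and 0.27. Among the genes most like *Inmt* was *Ogn* (0.34 and 0.33), which encodes a small leucine-rich proteoglycan. Ribosomal protein genes were also in both lists, and the barcodes share library and sort, so these values describe the barcodes only. No *Epcam* limit was set here. Before thinning, 74 male and 13 female fibroblast-like barcodes had more than 1 *Epcam* UMI, as did 134 and 28 in neither set. Their part in the r values was not tested, so a high r is not read as a trait of members.

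To see whether the members sit together without the genes of the rule, the 870 collagen-positive barcodes with at most 1 *Epcam* UMI and no Scrublet mark were clustered on 1500 variable genes from which those genes and sex-linked genes had been left out. Of 5 clusters, cluster 1 held 236 of 307 male members (76.9%) and 115 of 143 female members (80.4%). It also held 23 and 31 fibroblast-like barcodes, so that members were 91.1% and 78.8% of it. For scale, members were 56.9% and 47.8% of all members and fibroblast-like barcodes with at most 1 *Epcam* UMI, Scrublet marks included. Cluster 2 held 54 (17.6%) and 24 (16.8%) of the members together with 93 and 66 fibroblast-like barcodes. Cluster 3 was almost free of members, with 2 and 2 beside 82 and 53 fibroblast-like barcodes. Another 11 male and 2 female members lay in a cluster led by histone and mitosis genes, and 4 male members in a pericyte-like cluster led by *Rgs5*, *Higd1b* and *Kcnj8*. Clustering at a resolution of 1 split cluster 1, and 3 clusters made mostly of members then held 77.5% and 80.4% of them.

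**Figure D3:**
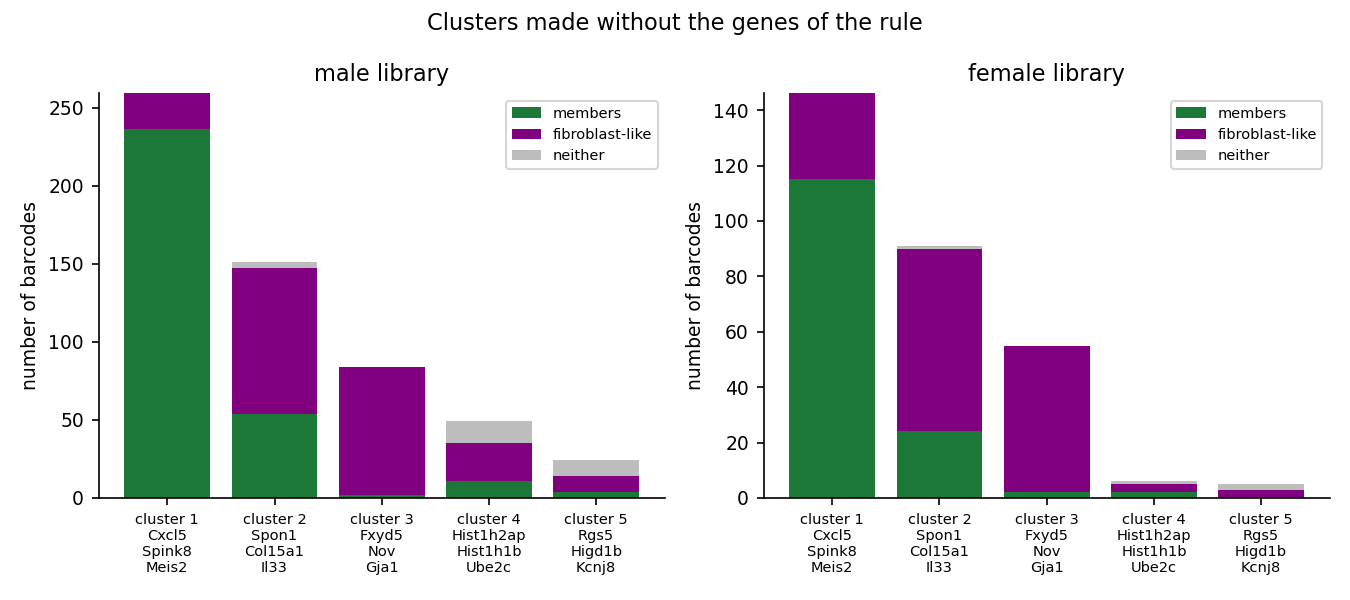
Number of barcodes in each of 5 clusters made without the genes of the rule, by library, stacked by set (members, fibroblast-like, neither). The 3 genes under each cluster have the largest ratios to the other clusters among genes with at least 50 CPM in it, rule and sex-linked genes left out. Cluster 1 holds 236 male and 115 female members, and cluster 3 holds 2 and 2.

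Few genes lay far apart between members and fibroblast-like barcodes. Of 3193 genes with at least 50 CPM in an arm of each library and 100 UMIs in all, 35 (1.1%) were at least 2-fold higher in members in both libraries and 47 (1.47%) at least 2-fold lower, with 5 CPM added to each level. The rule's own genes count among them. Against fibroblast-like barcodes with at most 1 *Epcam* UMI the numbers were 34 (1.07%) and 48 (1.51%) of 3189. The 20 leading genes on the higher side were all still at least 2-fold higher there, while *Epcam*, *Nnat*, *Chgb*, *Six6* and *Dlk1* left the lower side. The filter bears on these counts, since 36 of the 47 lower genes were under 50 CPM in members of a library and 26 of the 35 higher genes under 50 CPM in fibroblast-like barcodes of a library, and so were tested only through the arm where they are high. Against all other barcodes kept the distance was wider, with 439 of 3486 genes (12.6%) higher in members by this measure and 277 (7.95%) lower.

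The gene with the greatest difference in favour of members was *Cxcl5*, which encodes a neutrophil-attracting chemokine. It had 240 UMIs (91.1 CPM) in male and 106 (99.8 CPM) in female members, and 12 (3.72 CPM) and 7 (4.09 CPM) in fibroblast-like barcodes, a ratio of 24.5 and 24.4. These UMIs came from 67 of 308 and 36 of 144 members, so most members had none. *Spink8*, a Kazal-type protease inhibitor gene, stood at 131 and 115 CPM against 10.2 and 6.43 CPM, with UMIs in 113 and 38 members. Both genes were low in the members of cluster 2, as given below. *Meis2*, a homeobox cofactor gene, stood at 149 and 132 CPM against 15.5 and 18.1 CPM and was found in 160 and 62 members. *Meis2* was also present in 14.2% and 13.7% of the thinned stem set, so it was less selective than *Cxcl5* or *Spink8*, which were there in at most 0.151% of barcodes.

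*Penk*, the gene of the enkephalin precursor, stood at 13.9 and 30.4 CPM in fibroblast-like barcodes, while male members had 122 CPM (109 to 136) and female members 144 CPM (122 to 169). *Aqp1*, a water channel gene, was at 107 and 52.7 CPM against 16.7 and 8.18 CPM. *Gucy1a1*, a subunit of the nitric oxide receptor guanylate cyclase, was at 259 and 165 CPM against 40.9 and 41.5 CPM. Its partner *Gucy1b1* stayed within 2-fold in the female library (33.0 against 26.3 CPM). Other leading genes were *Lsp1* and *Olah*, the zinc finger gene *Zfp503*, the limb-bud and heart gene *Lbh*, and the MHC class I gene *H2-Q7*, which has close copies that can share reads. *Gata2*, a zinc finger transcription factor gene also used by pituitary lineages, was at 116 and 91.4 CPM against 41.8 and 34.5 CPM. The lipase gene *Lpl* and the adhesion gene *Negr1* completed this group with *Tnnt1*, *Snai2* and *Bmp2*.

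**Figure D4:**
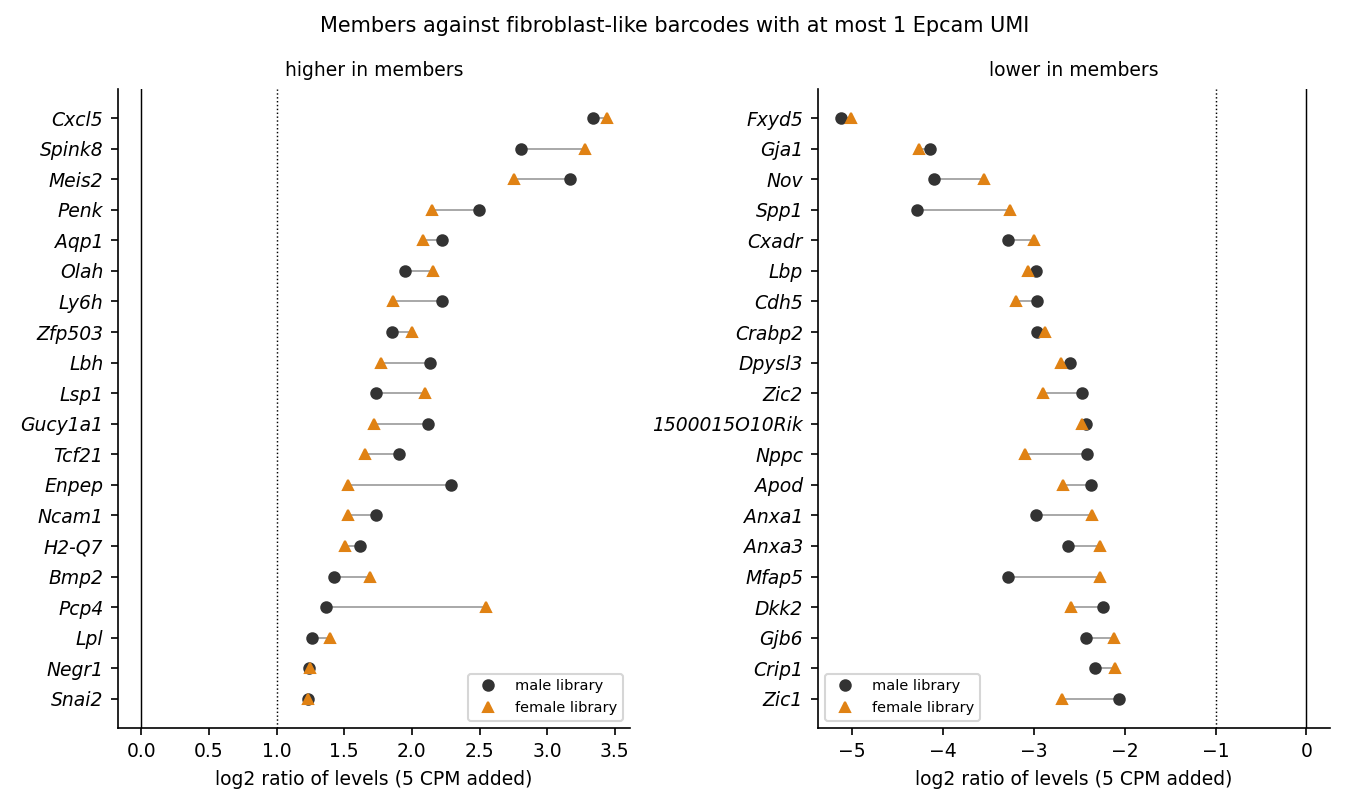
The 20 genes with the largest ratios each way between members and fibroblast-like barcodes with at most 1 *Epcam* UMI, ranked by the smaller ratio of the libraries. The horizontal axis is the log2 ratio with 5 CPM added, the dotted line marks 2-fold, circles are the male and triangles the female library. The choice of genes fixes that both libraries point the same way. *Tcf21*, *Mfap5* and *Apod* are genes of the rule.

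On the lower side, *Fxyd5*, a regulator of the sodium pump and of cell adhesion, was not detected in any member. It had 0 UMIs of 2633994 in male and of 1061798 in female members, and 452 UMIs (140 CPM) and 235 UMIs (137 CPM) in fibroblast-like barcodes, which makes it at least 123-fold and 48.6-fold lower with 3 UMIs as the limit. These UMIs came from 53 of 307 male and 25 of 170 female fibroblast-like barcodes, so most of that set had none either. *Gja1*, the gene of connexin 43, was at 9.49 and 4.71 CPM in members against 211 and 165 CPM. The connexin genes *Gjb2* and *Gjb6* were also lower, at 18.6 and 17.9 against 68.7 and 80.6 CPM for *Gjb2*. *Nov*, a secreted CCN protein gene, was at 5.69 and 5.65 CPM against 160 and 107 CPM, and *Spp1*, the osteopontin gene, at 1.90 and 1.88 CPM against 123 and 53.7 CPM. The retinoic acid carrier gene *Crabp2* was at 5.69 and 3.77 CPM against 85.8 and 61.3 CPM. *Cdh5*, an endothelial cadherin gene, was at 3.80 and 3.77 CPM against 53.6 and 69.5 CPM. Of these, *Fxyd5*, *Gja1*, *Nov* and *Spp1* were also among the leading genes of the cluster that held only 2 male and 2 female members.

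*Vim*, the gene of the intermediate filament vimentin, is commonly used as a mesenchymal marker and was looked at after its values were seen. Male members had it at 246 CPM (227 to 266) and female members at 216 CPM (189 to 245). In fibroblast-like barcodes it was at 762 and 705 CPM, and in the stem set at 298 and 360 CPM. The members were thus below both sets in both libraries.

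The mesenchymal transcription factor list, like the other lists here, was drawn up with earlier results of these data known. Of its 28 genes tested, 3 were at least 2-fold higher in members (*Tcf21*, *Twist2* and *Snai2*) and 1 lower (*Zic1*), with a median log2 ratio of 0.05 in both libraries against 0.01 and -0.01 over all genes tested, of which 1.1% were higher and 1.47% lower. *Tcf21* is a gene of the rule. *Twist2* and *Snai2* were under 50 CPM in fibroblast-like barcodes and *Zic1* in members, so these were tested only through the arm where they are high. *Twist2*, a bHLH factor gene of dermis and bone, was at 72.5 and 81.9 CPM in members against 30.96 and 36.8 CPM. Against fibroblast-like barcodes with at most 1 *Epcam* UMI its ratio was 1.91 and 1.88, short of 2-fold. There 2 of 30 genes were higher and 4 lower, with *Prrx2*, *Osr1* and *Zic2* beside *Zic1*, all 4 under 50 CPM in members and so tested only through the comparison set. *Snai2*, a repressor gene of epithelial genes, was at 72.1 and 53.7 CPM against 22.0 and 19.3 CPM. *Foxd1*, a forkhead factor gene of stromal precursors, did not separate the sets, with 574 and 594 CPM against 561 and 622 CPM. The same held for *Foxc1* (202 and 232 against 229 and 315 CPM) and *Twist1* (173 and 184 against 191 and 243 CPM). *Nr2f2*, the nuclear receptor gene COUP-TFII, was at 552 and 659 CPM against 410 and 522 CPM.

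Matrix genes gave few calls, as did all genes tested (1.1% higher and 1.47% lower). None of 15 collagen genes tested was at least 2-fold apart (median log2 ratios -0.01 and -0.28), nor any of 12 basement membrane genes, 9 proteoglycan genes or 13 genes of matrix proteases and their inhibitors. Against fibroblast-like barcodes with at most 1 *Epcam* UMI, 2 of 16 collagen genes were lower in members, *Col18a1* (235 and 280 against 535 and 604 CPM) and *Col8a1* (17.5 and 15.1 against 66.1 and 55.9 CPM). *Col1a1* was at 2453 and 2623 CPM in members against 2515 and 3336 CPM, and the proteoglycan gene *Dcn* at 4683 and 5834 CPM against 4691 and 6004 CPM. *Col1a1* belongs to the rule for both sets. *Col14a1*, which encodes a fibril-associated collagen, leaned to members at 281 and 229 CPM against 101 and 123 CPM but was under 2-fold in the female library. Of 25 elastic fibre and matricellular genes none was higher and 3 were lower: *Mfap5*, a gene of the rule, *Spp1*, and *Fbln2*, a fibulin gene (49.7 and 49.9 against 110 and 122 CPM). *Spp1* and *Fbln2* were under 50 CPM in members and so were tested only through the comparison set. In the comparison with at most 1 *Epcam* UMI the same 3 were lower and *Cyr61*, a matricellular CCN protein gene, was higher (96.4 and 190 against 44.998 and 80.6 CPM). *Fn1*, the fibronectin gene, was at 213 and 218 CPM against 404 and 394 CPM.

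Most signalling genes tested lay within 2-fold, and the calls are to be read against the 1.1% higher and 1.47% lower over all genes. Of the genes called, *Vegfd*, *Bmp2*, *Bmp7*, *Id1* and *Dkk2* were under 50 CPM in their lower arm in a library. They were tested only through the arm where they are high. Of 9 growth factor and chemokine ligand genes tested, *Vegfd*, a lymphatic growth factor gene, was higher (89.98 and 82.9 against 32.5 and 36.8 CPM) and none lower. Against fibroblast-like barcodes with at most 1 *Epcam* UMI *Vegfd* was short of 2-fold in the female library (41.3 CPM) and *Il33* was lower in members (77.4 and 79.1 against 199 and 182 CPM). *Cxcl12*, a chemokine gene, was at 558 and 407 CPM against 328 and 367 CPM, and *Igf1*, the gene of insulin-like growth factor 1, at 89.2 and 92.3 CPM against 34.1 and 44.99 CPM. Of 9 BMP and TGF-beta genes *Bmp2* was higher (77.4 and 58.4 against 20.1 and 15.8 CPM), and *Bmp7* (14.4 and 20.7 against 73.1 and 76.0 CPM) and the BMP target gene *Id1* (21.6 and 67.8 against 164 and 158 CPM) were lower. Of 6 WNT genes *Rspo3*, an enhancer of WNT signalling, was higher (164 and 185 against 57.9 and 82.96 CPM), and the inhibitor gene *Dkk2* was lower (8.73 and 16.01 against 54.5 and 113 CPM). *Wnt5a* was at 64.2 and 50.9 CPM against 37.2 and 40.3 CPM. None of 14 growth factor receptor genes passed 2-fold in either direction. *Pdgfra*, the receptor gene that marks fibroblasts, was at 409 and 500 CPM against 295 and 398 CPM.

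In the smaller lists the counts again stand beside 1.1% of all genes higher and 1.47% lower. Of the genes called, *Adh1*, *Crabp2*, *Enpep* and *C1s1* were under 50 CPM in their lower arm in a library, and so were tested only through the other arm. Of 7 retinoid genes the alcohol dehydrogenase gene *Adh1*, whose enzyme can oxidise retinol, was higher (109 and 102 against 32.5 and 46.2 CPM) and *Crabp2* was lower. *Adh1* was just short of 2-fold in the female library against fibroblast-like barcodes with at most 1 *Epcam* UMI (48.6 CPM). The retinal reductase gene *Dhrs3* (314 and 364 against 238 and 321 CPM) was within 2-fold. *Aldh1a2*, the retinoic acid synthesis gene, was low in members at 6.07 and 6.59 CPM, against 102 and 35.1 CPM. It also belongs to the list of 19 meningeal fibroblast genes and to a list of 17 stem cell genes. The sum of the 17 genes, *Aldh1a2* included, was 1251 and 653 CPM in fibroblast-like barcodes, and 290 and 218 CPM in those with at most 1 *Epcam* UMI. The part of stem cell RNA in the *Aldh1a2* difference was not tested, and the difference is not read as a trait of members. Of 12 genes of small-molecule enzymes, *Inmt*, *Enpep* and *Cyp7b1*, an oxysterol hydroxylase gene (127 and 134 against 59.4 and 60.2 CPM), were higher and the flavin monooxygenase gene *Fmo2* was lower (82.4 and 155 against 291 and 440 CPM). *Cyp7b1* was short of 2-fold in the male library against fibroblast-like barcodes with at most 1 *Epcam* UMI (70.2 CPM). Of 9 complement and innate genes, the complement protease gene *C1s1* and *Plac8* were higher, and *Plac8* lost this call with the *Epcam* limit on the comparison set. None of 3 hedgehog, 3 Notch or 4 nuclear receptor genes was 2-fold apart. The list of 13 immediate-early genes had no member past 2-fold but median log2 ratios of 0.51 and 0.75. *Fos* was at 3603 and 4263 CPM in members against 2178 and 2207 CPM.

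Genes known from meningeal fibroblasts were mixed in members, some low and others high. Of 10 genes of this list tested, 5 were under 50 CPM in members of a library, so they were tested only through the fibroblast-like barcodes where they are high, and no count over the list is read as a result. The lower genes were *Zic1*, *Gjb2*, *Gjb6*, *Crabp2* and *Nnat*, and over all genes tested 1.47% were lower. *Itih2* took the place of *Nnat* against fibroblast-like barcodes with at most 1 *Epcam* UMI. *Zic1*, a zinc finger factor gene, was at 17.5 and 10.4 CPM against 70.0 and 85.9 CPM. Of 5 adventitial fibroblast genes the 2 lower were *Mfap5* and *Apod*, which the rule uses. *Cldn11*, a tight junction gene in the meningeal list, did not separate the sets (599 and 708 against 574 and 767 CPM). Nor did *Foxc1*, *Foxd1* and *Ogn* of that list give a call, with *Foxd1* at 574 and 594 CPM and *Ogn* at 562 and 638 CPM in members. Against all other barcodes kept these 4 genes were higher in members, and *Aldh1a2*, *Crabp2*, *Nnat* and *Ptgds* were lower.

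Markers of other cell types differed in level, from near 0 for immune genes to widespread for some endothelial and smooth muscle genes. The 12 immune genes summed to 5.32 CPM in male and 5.65 CPM in female members, with *Ptprc* at 0 in both, and 295 of 308 and 139 of 144 members had no UMI of any of them. The 6 erythroid genes summed to 0.759 and 1.88 CPM. The 15 pituicyte and glial genes summed to 33.8 and 33.0 CPM. Of the 12 endothelial genes, *Emcn* (191 and 210 CPM) and *Ramp2* (327 and 230 CPM) made up most of the sums of 537 and 458 CPM, with only 26 male and 14 female members at 0 for the list, and both were also found in fibroblast-like barcodes (174 and 204 CPM for *Emcn*, 432 and 424 CPM for *Ramp2*). *Pecam1*, which defines endothelium, had 0 UMIs in members of both libraries.

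The 14 pericyte genes summed to 543 and 293 CPM in members and to 518 and 438 CPM in fibroblast-like barcodes. *Rgs5* had 124 UMIs in male members, of which 3 barcodes held 117, and 2 UMIs in female members. The 10 smooth muscle genes summed to 940 and 816 CPM against 569 and 582 CPM, with only 7 male and 8 female members at 0. *Mylk*, the myosin light chain kinase gene, was higher (170 and 186 against 61.6 and 89.4 CPM), and *Acta2*, the smooth muscle actin gene, was at 80.9 and 45.2 CPM against 27.2 and 7.60 CPM, with UMIs in 46 and 14 members. *Myh11*, which defines mature smooth muscle, was at 1.14 and 0 CPM. The 17 stem cell genes summed to 301 and 262 CPM in members against 6483 and 6946 CPM in the stem set, with *Sox2* at 4.94 and 0 CPM in members. The 14 endocrine genes summed to 243 and 105 CPM. *Pomc* was at 157 and 33.9 CPM, with UMIs in 227 male and 25 female members, and averaged 13749 and 4832 CPM over all other barcodes. *Gh* had 150 UMIs in 72 male members and 43 in 19 female members. The part of free RNA in these levels was not tested.

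The sort selected GFP from the *Sox9* locus. *Sox9* itself was at 36.1 CPM (29.2 to 44.1) in male and 42.4 CPM (30.9 to 56.7) in female members. At 5000 UMIs it was present in 17.9% (13.6 to 22.9) and 17.3% (11.2 to 25.04) of members, 17.8% and 20.5% of fibroblast-like barcodes and 28.8% and 31.6% of the stem set. A secretory set (at least 5 *Chga* and *Chgb* UMIs, no *Sox2*, collagen sum under 5) gave 4.03% and 4.85%. Before thinning the members' shares were 21.4% and 25.7% at the medians of 7618 and 7111 UMIs, and those of the secretory set 9.34% and 10.8% at 14070.5 and 14194 UMIs. The share with *Sox9* was therefore higher in members than in the secretory set in both libraries. That set passed the same sort and was chosen to lack *Sox2*, so it does not give a background level. The GFP transcript was rarely caught. It was in 2.51% (1.01 to 5.10) and 1.57% (0.191 to 5.57) of thinned members, against 6.07% and 6.83% of fibroblast-like barcodes and 1.17% and 0.606% of the secretory set. With 7 and 2 positive members the share with the GFP transcript could not be told from that of the secretory set at this depth. Over the summed UMIs its level was 7.21 and 2.83 CPM in members, 13.0 and 12.9 CPM in fibroblast-like barcodes, and 18.8 and 13.5 CPM in the stem set.

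Few members were cycling. At 5000 UMIs, 2 or more of 10 mitosis genes were present in 6 of 279 male members (2.15%, 0.793 to 4.62) and 2 of 127 female members (1.57%, 0.191 to 5.57). Fibroblast-like barcodes gave 12.6% and 4.35%, or 6.97% and 2.70% with at most 1 *Epcam* UMI, and the stem set gave 20.5% and 14.2%. The secretory set gave 2.21% and 6.06%. Before thinning the members stood at 3.90% and 2.78%. The male barcodes of the cluster led by histone and mitosis genes had a median of 3174 UMIs. The limit of 5000 UMIs can therefore leave out cycling members, and the thinned male share may be too low. Of 5 proliferation genes tested 2 were lower in members, *Cenpf* and *Stmn1*, and neither remained so against fibroblast-like barcodes with at most 1 *Epcam* UMI. *Mki67* was at 14.4 CPM in male members, where 29 of its 38 UMIs came from 3 barcodes, and was not detected in female members.

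Members themselves fell into the profiles of clusters 1 and 2. The clusters were made from the same counts, so the differences below are a description of the clustering. They cover all genes tested, including *Tcf21* and *Apod*, which the clustering left out. Of 3210 genes, 44 (1.37%) were at least 2-fold higher in cluster 1 members in both libraries and 39 (1.21%) in cluster 2 members. The filter bears on these counts, since a gene needed 50 CPM in only 1 arm of each library. *Npnt*, *Cxcl5*, *Spink8*, *Penk*, *Meis2*, *Tagln* and *Acta2* were under 50 CPM in cluster 2 members, and *Il33*, *Cemip* and *Fbln2* in cluster 1 members. These genes were tested only through the arm where they are high. *Npnt*, the gene of the integrin ligand nephronectin, was at 94.3 and 165 CPM in cluster 1 members and had 0 UMIs in cluster 2 members of both libraries, which with 3 UMIs as the limit allows up to 7.73 and 17.96 CPM there. *Cxcl5* was at 110 and 127 CPM against 2.58 and 0 CPM, and *Spink8* at 162 and 145 CPM against 10.3 and 5.99 CPM. In cluster 2 members both were close to all fibroblast-like barcodes (3.72 and 4.09 CPM for *Cxcl5*, 10.2 and 6.43 CPM for *Spink8*). *Penk* was at 147 and 181 CPM against 12.9 and 5.99 CPM, *Meis2* at 175 and 159 CPM against 18.0 and 5.99 CPM, and *Enpep* at 360 and 283 CPM against 51.5 and 47.9 CPM. The contractile genes *Tagln* (59.1 and 74.2 against 0 and 5.99 CPM) and *Acta2* (94.3 and 55.1 against 12.9 and 0 CPM) followed. *Enpep* in cluster 2 members was close to its level in the fibroblast-like barcodes of cluster 2, at 54.8 and 53.4 CPM.

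Cluster 2 members were led by *Il33*, an alarmin cytokine gene, at 337 and 293 CPM against 28.8 and 29.9 CPM in cluster 1 members. *Cemip*, a hyaluronan-degrading protein gene, was at 170 and 132 CPM against 21.0 and 14.4 CPM, and *Col18a1*, a basement membrane collagen gene, at 670 and 820 CPM against 156 and 166 CPM. *Fbln2* and *Hspg2*, the perlecan gene, were also higher there (180 and 132 against 24.4 and 34.7 CPM for *Fbln2*). *Pdgfra* was at 796 and 814 CPM against 354 and 448 CPM. The levels of *Il33* and *Col18a1* in cluster 2 members lay near those of fibroblast-like barcodes of the same cluster (321 and 334 CPM for *Il33*, 920 and 923 CPM for *Col18a1*). *Tcf21* was at 713 and 730 CPM in cluster 2 members, 1178 and 1014 CPM in cluster 1 members, and 317 and 330 CPM in fibroblast-like barcodes of cluster 2. *Apod*, at 252 and 335 CPM in cluster 2 members, was at 1156 and 1834 CPM in those barcodes. Cluster 2 thus contained barcodes of both sets.

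Members of the sexes had similar levels. Of 3398 genes, 4 (0.118%) were at least 2-fold higher in female members and 17 (0.5%) at least 2-fold lower, with a median log2 ratio of -0.08. The sex-linked genes followed the labels. *Xist*, the X-inactivation RNA, had 1 UMI (0.380 CPM) in male and 628 UMIs (591 CPM) in female members, and the Y-linked genes *Ddx3y* and *Eif2s3y* were at 91.9 and 52.4 CPM in male and 0 in female members. Of the 21 genes, 11 also differed at least 2-fold the same way in all other barcodes kept, and 13 in fibroblast-like barcodes with at most 1 *Epcam* UMI. No share over all genes is given for those sets, so these overlaps are not read as a result.

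*Id1* and *Id2*, inhibitors of bHLH factors and targets of BMP signalling, were at 21.6 CPM (16.4 to 28.0) and 26.6 CPM in male members and at 67.8 CPM (53.1 to 85.4) and 83.8 CPM in female members. In all other barcodes kept *Id1* was at 211 and 295 CPM. *AC160336.1* was at 46.3 CPM in male and 143 CPM in female members, and at 76.9 and 191 CPM in the rest of these libraries. Histone genes made up 4 of the 17 lower in females, with *Hist1h2ap* at 226 and 4.71 CPM. In male members 95.6% of its 595 UMIs came from 11 barcodes. *Pomc* (157 and 33.9 CPM) moved with its level in all other barcodes, 13749 and 4832 CPM. The markers themselves differed little between the sexes, with female levels below male for *Tcf21*, *Inmt*, *Plac8* and *Enpep* and above for *Olfml3*. With 1 library a sex, these differences cannot be told apart from the libraries.

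**Figure D5:**
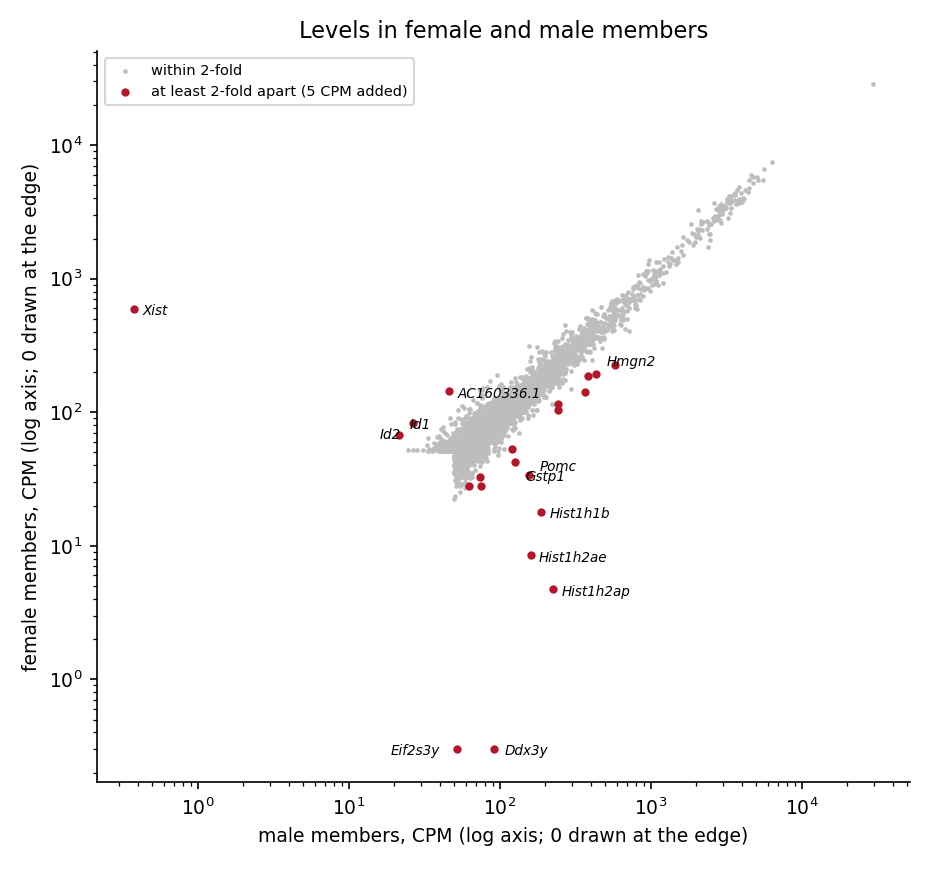
Level of each of 3398 genes in female members (vertical) against male members (horizontal), in CPM on log axes, with levels of 0 drawn at the edge. Red points are at least 2-fold apart with 5 CPM added, and 4 lie on the female and 17 on the male side. *Xist*, *Ddx3y* and *Eif2s3y* lie farthest from the diagonal with the histone genes.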

How the data were processed

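The data were droplet single-cell RNA libraries of GFP-sorted pituitary cells, 1 male and 1 female. Values are the UMI count of each gene and barcode in the filtered matrices the authors deposited; reads had been aligned to mm10 with the reporter sequences added, and the matrix header names software version 3.0.2. The kit chemistry is stated in more than 1 way in the sources. Counts were used as deposited. The 31055 features were matched by identifier to GENCODE vM21, and 30934 gave a position.

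Members followed the rule given above. UMIs were summed per set and library and given as CPM (counts per 1000000) with exact Poisson intervals, and shares with Clopper-Pearson intervals (95%). A gene was counted as higher or lower at 2-fold or more in both libraries with 5 CPM added. Thinning drew 5000 UMIs per barcode. Doublets were scored with Scrublet in scanpy 1.11.5 (the highest 0.8% per 1000 barcodes were marked, and members were not filtered on it). Clusters used 15 components, 15 neighbours and Leiden 0.10.2 at a resolution of 0.6. No test was run, since cells are not replicates. Genes named are those of the rule and markers, list members, the 20 with the largest ratios each way, the 5 with the largest ratios between the sexes, and the 10 most like *Tcf21* or *Inmt*. Members and lists were chosen with earlier results of these data known. The 2-fold call was also run on simulated counts for members against fibroblast-like barcodes, with 3046 genes tested. Of genes made 3- or 4-fold higher, 100 of 100 were recovered, and of those made lower 95 of 100. Of 2850 unchanged genes 0 were called. These were Poisson draws from 1 pooled profile per library, without variation between cells or animals. The changed genes had at least 50 CPM over both sets together. The numbers therefore check the calculation only and give no error rate for the real calls.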

Additional observations from a re-analysis of the deposited data

How the results depend on the processing

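The share of members stayed within its counting interval under 23 of 24 alternatives to the rule. With barcodes of at least 500 genes it was 3.17% in the male library, where 2513 barcodes lie under 1000 genes. Counts of genes stayed within 1.5 times under 66 of 76. Against fibroblast-like barcodes, the filter of 20 CPM gave 101 lower genes, and no filter gave 68 higher and 227 lower. Between the sexes, female members had 8 higher genes with no *Epcam* UMI allowed, 7 with ties left out, 38 without the filter and 8 after thinning, and 30 lower genes at 20 CPM, 139 without the filter and 28 after thinning. Marker levels stayed within their intervals in 129 of 130 cases. No sign changed under an alternative among the 20 leading genes on the higher side. After thinning *Gata2*, *Lpl* and *Olfml3* were under 2-fold. On the lower side, with the *Epcam* limit on the comparison set, 15 of 20 were still 2-fold lower and 2 changed sign in a library. Choices added after seeing the data were a comparison set with at least 2 UMIs of *Mfap5*, *Apod* and *Tgfbi*, leaving out the cycling and pericyte-like clusters, and other cluster settings, of which a resolution of 1 left 34.2% of male and 30.8% of female members in the cluster that held most of them. With 1 library a sex no replicate could be left out. No paired analysis was possible because each group holds 1 library and the groups share fewer than 2 replicate numbers. A gene with 0 UMIs in members may still stand at up to 1.14 CPM (male) or 2.83 CPM (female), with 3 UMIs as the limit.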

Other observations

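Next to the 5 markers, the comparison of members with all other barcodes kept (439 of 3486 genes, or 12.6%, at least 2-fold higher and 277, or 7.95%, lower) had among its leading genes *Ifitm1*, an interferon-induced membrane protein gene (829 and 1067 CPM against 18.8 and 26.8 CPM), and *Igfbp7*, a secreted IGF-binding protein gene (2401 and 1738 against 82.0 and 60.6 CPM). Of the 439 genes, 361 were under 50 CPM in the other barcodes of a library, and of the 277, 232 were under 50 CPM in members of a library, so the filter bears on these counts.

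Among 11 imprinted growth genes tested none was higher than in fibroblast-like barcodes, and *Dlk1* and *Nnat* were lower. Both calls were lost against fibroblast-like barcodes with at most 1 *Epcam* UMI, where *Dlk1* was at 41.8 and 13.3 CPM and members at 36.8 and 28.3 CPM. *Gpc3*, a glypican gene, was at 766 and 834 CPM in members and at 74.6 and 105 CPM in all other barcodes. *Cxcl13*, a B-cell chemokine gene below the filter, was at 26.6 and 23.5 CPM in members and 1.24 and 0.584 CPM in fibroblast-like barcodes, from 28 male and 12 female members.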
